A study of Mus musculus with 12 samples.

Results

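Loss of Casp1 and Casp11 in mouse hematopoietic stem cells (HSCs) was described from 6 of the 12 libraries of the series: C1, C2 and C3 (group C), labelled Casp1 -/- Casp11 -/-, and WT2, WT3 and WT4 (group WT), labelled Wild-type. Each library held total RNA of sorted HSCs of 1 mouse of the C57BL/6J strain, and neither group carried a transgene. The remaining 6 libraries carried the Emu-myc transgene, in which the Myc oncogene is driven by an immunoglobulin heavy chain enhancer that is active in B-lineage cells. They formed group E (Emu-myc, caspases intact, E1 to E3) and group CE (Emu-myc with Casp1 -/- Casp11 -/-, CE1 to CE3). The age and sex of the mice, the gate of the sort and the deleted exons were not given in the sources used here, and the labels describe no tissue-specific deletion. Of 27179 genes in the count table, 23975 lay on the 19 autosomes, and 13598 autosomal genes had enough counts to be tested. Genes of the sex chromosomes were left out of the comparison.

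Caspase-1 and caspase-11 are the inflammatory caspases. Caspase-1 is activated in inflammasomes, matures interleukin-1β and interleukin-18 and cleaves gasdermin D, whose pores cause the lytic death called pyroptosis. Caspase-11, whose gene is listed as Casp4 in the current annotation, binds cytosolic lipopolysaccharide and cleaves gasdermin D directly. HSCs sustain all blood lineages, are mostly quiescent, and respond to inflammatory cytokines such as interferons and interleukin-1.

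The largest rise among the tested genes that passed the threshold below was that of Hspa1a, and its neighbour Hspa1b rose with it. Both encode the stress-inducible chaperone HSP70 and lie on chromosome 17. Their promoters are shown because the pair is nearly identical in sequence, so that reads of the transcripts may be split between the copies and the gene-level values are uncertain. The 250 bases before each transcription start were read from RefSeq (GRCm38.p6, minus strand, 5′ to 3′), at chr17:34972157-34972406 for Hspa1a and chr17:34959239-34959488 for Hspa1b. Capitals mark the 3 positions at which they differ, which leaves 98.8% identity.
Hspa1a: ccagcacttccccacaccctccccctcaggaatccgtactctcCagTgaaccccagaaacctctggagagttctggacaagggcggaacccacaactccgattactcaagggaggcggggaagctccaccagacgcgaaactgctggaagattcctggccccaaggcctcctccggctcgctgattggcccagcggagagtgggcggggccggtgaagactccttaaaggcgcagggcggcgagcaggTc
Hspa1b: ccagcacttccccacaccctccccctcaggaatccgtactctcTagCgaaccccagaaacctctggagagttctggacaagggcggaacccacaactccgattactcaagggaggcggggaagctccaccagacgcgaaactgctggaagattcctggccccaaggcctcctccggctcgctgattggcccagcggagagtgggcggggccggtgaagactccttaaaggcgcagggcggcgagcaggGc
Each promoter held GAANNTTC, a 2-unit form of the heat shock element to which heat shock factors bind, 104 bases before the start. Binding was not measured. GAANNTTC is its own reverse complement, so a single search covers both strands. The motif was found in 7.73% of 27025 mouse promoters of this length and in 6.11% of 10612 promoters of autosomal genes that were tested. It was also present in the promoters of Hspb1, Maml1 and Nhsl1, which makes 5 of the 39 higher genes with a promoter sequence, and in that of Hypk, 1 of 22 lower genes. The 3-unit form (GAANNTTCNNGAA or TTCNNGAANNTTC) was in none of these 39 and 22 promoters and in 0.514% of all. The 2-unit form was searched after the 3-unit form had given no match.

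Libraries of C held 28353953 to 34065910 counts and those of WT 24724773 to 28999352, and replicates correlated at 0.9806 to 0.9931 in log2 CPM across genes (CPM is the count of a gene relative to the effective size of its library). Several features of the libraries moved with the groups. The summed level of the Y-linked Ddx3y, Eif2s3y, Kdm5d and Uty was 91.4 to 101 CPM in C and at most 0.169 CPM in WT, while Xist was at 0.8355 to 0.954 CPM in C and 578.1 to 1090 CPM in WT. Sex and genotype therefore cannot be told apart in C against WT. CE3 was the 1 caspase-deficient library with the pattern of WT (Y-linked sum 0.263 CPM, Xist 950.5 CPM). The number of genes with a count was 22900 in C1, 21247 in C3 and 18738 in C2, against 17572 to 17670 in WT. Among olfactory, vomeronasal and bitter taste receptor genes, which are silent in blood cells, 699 had a count in C1, 327 in C3 and 119 in C2, against 28 to 40 in WT. Mitochondrially encoded transcripts took 0.743 to 0.769% of the counts in C and 0.734 to 1.59% in WT. The part of these differences in the results was not tested. All 36 HSC identity genes were past the filter, and their summed level was 3481 to 3540 CPM in C and 3227 to 3531 CPM in WT. The 16 tested genes of the neutrophil list were also abundant in sum (10600 to 11860 CPM in C, 9266 to 13720 CPM in WT). Of this list Ltf, Mmp9, Retnlg, Chil3 and Ly6g were below the filter, while Camp, Ngp, Lcn2, Mmp8, S100a8, S100a9 and Cxcr2 passed it. In bulk RNA, fewer cells of a type and less RNA per cell cannot be told apart.

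The targeted gene Casp1 (gene 12362, chromosome 9, 5298517 to 5307281) was at 47.8, 39.7 and 29.8 CPM in WT2, WT3 and WT4, and at 6.39, 5.10 and 6.20 CPM in C1, C2 and C3. The groups did not overlap, and each C library kept a residual signal. Casp1 fell 6.64-fold (39.1 ± 9.0 CPM in WT, 5.90 ± 0.70 in C, SD, n = 3 each; log2 fold change -2.73, SE 0.17, adjusted p = 9.15e-07, edgeR quasi-likelihood test with Benjamini-Hochberg adjustment). Casp4, the gene of caspase-11, was at 12.5, 14.5 and 12.04 CPM in WT and 9.92, 7.07 and 9.96 CPM in C. All C libraries were below all WT libraries, but the difference did not pass the threshold (log2 -0.54, SE 0.19, adjusted p = 0.11 in edgeR; the adjusted p was 0.0237 with no filter on low counts and 0.0371 in limma voom). A gene-level count does not show which exons the reads cover, so the Casp4 label is not checked by it. Casp12, the next gene along chromosome 9, was at 6.29 ± 0.84 CPM in WT and 4.62 ± 0.92 in C (SD, n = 3 each; log2 -0.45, adjusted p = 0.169, edgeR).

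Across the autosomes, 83 genes including Casp1 passed the threshold of an adjusted p under 0.05 and are referred to as called, 0.61% of those tested: 47 were higher in C (0.346%) and 36 lower (0.265%). For all of the 83 the C and WT libraries did not overlap, which held for 3599 of the 13598 tested genes (26.5%). Most calls were close to the threshold, since 59 of them had an adjusted p of 0.04 or more and 6 had one under 0.01. The latter were Casp1, Hspa1a, Hspa1b, Plcd3, Camk2b and the long noncoding RNA Gm15915, which also passed whichever single C or WT library was left out. Without C1 and C3 together, the libraries with counts for the most genes, 4 genes passed: Casp1, Hspa1a, Hspa1b and Plcd3. The number that passed moved widely with 1 library: 2 to 6 genes passed in each direction without C1, C2, C3 or WT2, against 1164 higher (8.32%) and 970 lower (6.94%), together 15.3% of the genes tested, without WT4, and 223 higher (1.6%) and 518 lower (3.71%) without WT3. Other tools called more genes: DESeq2 called 545 higher (4.01%) and 584 lower (4.29%), and limma voom 829 higher (6.1%) and 836 lower (6.15%). The limma voom fit also gave each library a quality weight, which the edgeR and DESeq2 fits did not. Its counts here and below therefore do not differ by the tool alone. In the lists below, members called by edgeR are therefore set beside those called by DESeq2 and limma voom and those at an unadjusted p under 0.05 in edgeR. Over all tested autosomal genes, 3171 (23.3%, both directions together) had an unadjusted p under 0.05 in edgeR. List counts at that cut-off are to be read against this share. The median log2 fold change was 0.81 over the higher genes and -0.66 over the lower ones, against -0.01 over all tested genes, and 16 higher and 10 lower genes changed more than 2-fold.

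**Figure D1:**
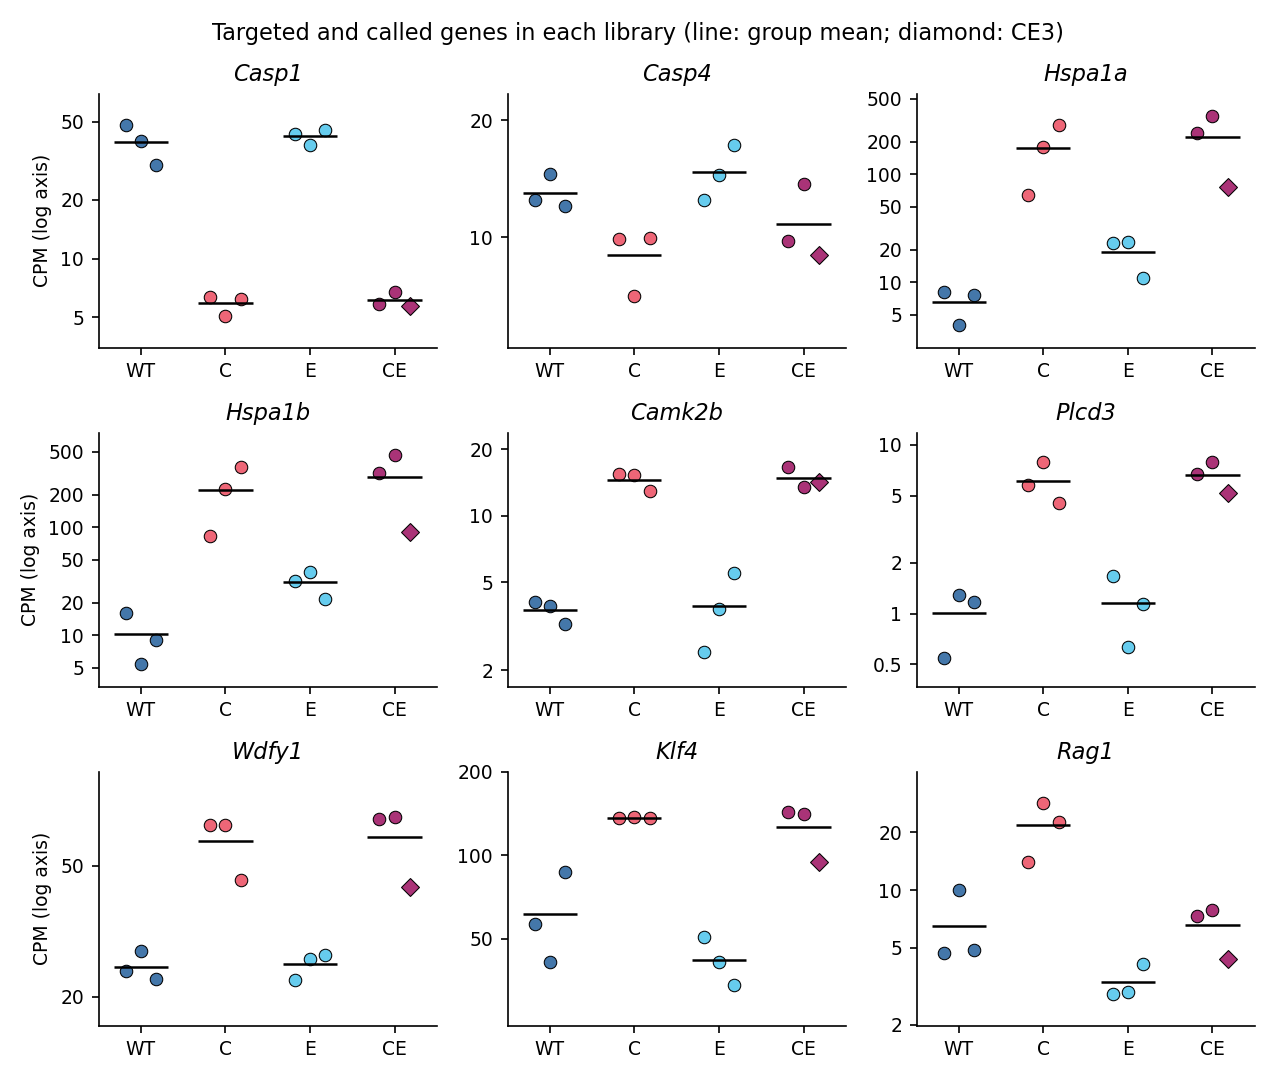
Each point is the level of a gene in 1 library in CPM on a log axis, for the groups WT, C, E and CE, with the mean of each group as a line and CE3 as a diamond. Casp1 fell to 5.10 to 6.39 CPM in C, and Hspa1a rose from at most 8.15 CPM in WT to at least 63.6 CPM in C.

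Heat shock genes were 3 of the 4 largest rises among all called genes. The other was Pkd1l1, a polycystin family gene near the detection limit that was named after its values were seen, at 0.0388 ± 0.0368 CPM in WT and 1.09 ± 0.27 in C (SD, n = 3 each; log2 4.71, SE 0.81, adjusted p = 0.0311, edgeR). Hspa1a was at 8.15, 4.02 and 7.62 CPM in WT2, WT3 and WT4, and at 63.6, 179 and 285 CPM in C1, C2 and C3. The lowest C library was far above the highest WT library, and the C libraries themselves differed severalfold. Hspa1a rose 26.8-fold (6.60 ± 2.25 CPM in WT, 176 ± 111 in C, SD, n = 3 each; log2 4.74, SE 0.60, adjusted p = 0.00414, edgeR). Hspa1b was at 16.1, 5.41 and 8.92 CPM in WT and 83.0, 226 and 358 CPM in C. Its libraries took the same order within C as for Hspa1a, and it rose 21.9-fold (log2 4.45, SE 0.62, adjusted p = 0.00747, edgeR). Hspb1, the gene of the small chaperone HSP27, was at 0.511, 0.135 and 0.346 CPM in WT and 1.31, 2.98 and 4.18 CPM in C (log2 3.10, SE 0.58, adjusted p = 0.0412, edgeR). These 3 were the called members among 20 tested heat shock genes in edgeR, none was called lower (4 higher and 2 lower at an unadjusted p under 0.05), and the median of the 20 was 0.03. The same 3 genes were among the 7 of 16 list members with a promoter sequence (43.8%) that had the 2-unit heat shock element described above. The 3-unit form was in 2 of these 16 promoters (12.5%), those of Hspd1 and Hspe1, which were not called. In CE3, which has no Y-linked signal, Hspa1a was at 75.9 CPM against 11.0 to 23.7 CPM in E, and Hspa1b at 91.0 CPM against 21.5 to 38.9 CPM. CE3 was above each E library and below the other CE libraries for both genes.

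Plcd3 was called in 16 of 17 alternatives, as were Hspa1a and Hspa1b, and Camk2b in 15. Camk2b encodes the beta subunit of calcium/calmodulin-dependent kinase II, and was at 4.09, 3.92 and 3.25 CPM in WT and 15.5, 15.3 and 12.9 CPM in C. Replicates lay close together in both groups, and Camk2b rose 3.87-fold (log2 1.95, SE 0.22, adjusted p = 0.00151, edgeR). Plcd3, which encodes a phospholipase C that cleaves phosphatidylinositol bisphosphate, was at 0.548, 1.28 and 1.17 CPM in WT and 5.80, 7.96 and 4.50 CPM in C. It rose 6.07-fold (log2 2.60, SE 0.35, adjusted p = 0.00636, edgeR). Camk2b and Plcd3 lie on chromosome 11 but far apart, at 5969629 to 6066357 and 103070296 to 103101710. In CE3 both were above each E library: Camk2b was at 14.2 CPM against 2.42 to 5.53 CPM in E, and Plcd3 at 5.19 CPM against 0.633 to 1.67 CPM. CE3 lay between CE1 and CE2 for Camk2b (16.6 and 13.5 CPM) and below both for Plcd3 (6.71 and 7.88 CPM). Wdfy1, an adaptor of Toll-like receptor signalling, was at 23.9, 27.6 and 22.6 CPM in WT and 66.3, 66.6 and 45.2 CPM in C. It rose 2.40-fold (log2 1.27, SE 0.18, adjusted p = 0.0111, edgeR), and C3 was the lowest of the C libraries.

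Klf4, a Krüppel-like transcription factor, was at 56.4, 41.5 and 87.1 CPM in WT and at 136, 138 and 136 CPM in C, with WT4 nearest to C. It rose 2.22-fold (log2 1.15, SE 0.22, adjusted p = 0.046, edgeR). Rag1, a subunit of the recombinase that assembles antigen receptor genes, was at 4.71, 9.97 and 4.89 CPM in WT and 14.0, 28.3 and 22.6 CPM in C (log2 1.72, SE 0.31, adjusted p = 0.0382, edgeR). Its partner Rag2 was at 5.70, 9.70 and 3.29 CPM in WT and 5.53, 7.45 and 6.65 CPM in C, groups that overlap. Rag2 was named after its values were seen. Of the other higher genes named by size, Vasn, a trap of transforming growth factor beta, had a log2 fold change of 1.21 and Mmp11, a stromelysin, one of 1.10. Snx29, a sorting nexin, reached 1.02, the zinc finger gene Hivep3 1.01, and the adhesion scaffold Cass4 1.001 (adjusted p from 0.0359 to 0.0499 over these 5 genes, edgeR). The imprinted noncoding RNA Meg3 rose from 0.336 ± 0.137 to 1.71 ± 0.48 CPM (SD, n = 3 each; log2 2.36, adjusted p = 0.0263, edgeR).

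Of the 36 lower genes 28 were protein-coding, and 6 long noncoding RNAs, 1 snoRNA and 1 microRNA made up the rest, against 46 protein-coding genes and 1 long noncoding RNA among the 47 higher genes. The 13598 tested genes held 12633 protein-coding genes, 578 long noncoding RNAs, 79 snoRNAs and 34 microRNAs. Gm15915, a long noncoding RNA on chromosome 10, was at 22.4, 26.0 and 25.5 CPM in WT and 8.46, 8.59 and 9.96 CPM in C, with tight replicates on both sides. It fell 2.73-fold (log2 -1.45, SE 0.17, adjusted p = 0.00151, edgeR). Cep85, a centrosomal protein gene, was at 55.7, 44.6 and 59.9 CPM in WT and 27.5, 33.99 and 30.8 CPM in C (log2 -0.79, SE 0.12, adjusted p = 0.0111, edgeR). Prg3, an eosinophil granule protein gene, was at 9.24, 4.50 and 3.03 CPM in WT and 1.62, 0.835 and 1.54 CPM in C (log2 -2.08, SE 0.42, adjusted p = 0.0461, edgeR). WT2 held the highest level of Prg3, and the lowest WT library was above the highest C library. Aif1, a calcium-binding protein gene of macrophages, fell from 4.35 ± 0.92 to 2.16 ± 0.16 CPM (SD, n = 3 each; log2 -1.01, adjusted p = 0.0461, edgeR). Cd52, a small glycoprotein of lymphocytes, had a log2 fold change of -0.88, Dpysl2, a microtubule-binding protein, one of -0.96 and Eif4ebp3, a repressor of translation initiation, one of -0.90. Cox17, a copper chaperone for cytochrome oxidase, had one of -0.73, and Hypk, a ribosome-associated protein, one of -0.67. The snoRNA Snord104 (-1.03) and the snoRNA host gene Snhg20 (-1.10) were lower as well, with adjusted p from 0.0395 to 0.0499 over these 7 genes in edgeR.

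The microRNA gene Mir142 (chromosome 11, 87756864 to 87756927), which is specific to blood cells, was at 19.3, 17.4 and 11.8 CPM in WT and 7.15, 7.30 and 6.33 CPM in C. It was lower in each C library (log2 -1.22, SE 0.23, adjusted p = 0.0413, edgeR), and it was the 1 called gene among 34 tested microRNA genes. Total RNA reads at this gene come from precursor transcripts, so the level of the mature forms was not measured. Its mature sequences are shown with the seed, bases 2 to 8, in capitals, together with miR-142b, which is read from the opposite strand of the same place. Whether the counting used strand is not given in the sources used here, and without strand the reads of the overlapping pair cannot be told apart.
mmu-miR-142a-5p: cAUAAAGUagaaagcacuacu
mmu-miR-142a-3p: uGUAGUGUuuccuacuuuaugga
mmu-miR-142b: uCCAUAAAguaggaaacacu
The 3 seeds differ from each other.

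Transcript length moved with the groups. Median log2 fold changes of C against WT were -0.20, -0.06, 0.00, 0.06 and 0.17 from the shortest to the longest quintile of transcript length. Of the higher genes 24 were in the longest quintile and 2 in the shortest, and of the lower genes 0 and 16. The median transcript was 5263 nt in the higher genes, 1597.5 nt in the lower genes and 3353 nt over all tested genes with a length. The same trend was visible per library: the median deviation of the longest quintile minus that of the shortest was -0.28, -0.01 and -0.42 log2 units in WT2, WT3 and WT4, and 0.10, 0.06 and 0.27 in C1, C2 and C3. Its part in the calls was not tested, but with trends on length and GC content removed in each library, 29 genes passed (0.213%), of which 26 were among the 83. All of the 83 kept their sign then. Casp1 (-2.41), Hspa1a (4.66), Plcd3 (2.51), Camk2b (1.85), Wdfy1 (1.27) and Cep85 (-0.85) stayed past the threshold in edgeR. Only genes with a known length were adjusted, which were 47 higher and 30 lower genes. Gm15915, Snhg6, AI450353 and 5830416I19Rik are among the 26 but had no length, so their passing says nothing about it. Mir142 did not pass (log2 -0.45, adjusted p = 0.238, edgeR). The length used for Mir142 was the 64 nt of its annotated gene, not that of its precursor transcripts, so this value does not show its dependence on length.

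**Figure D2:**
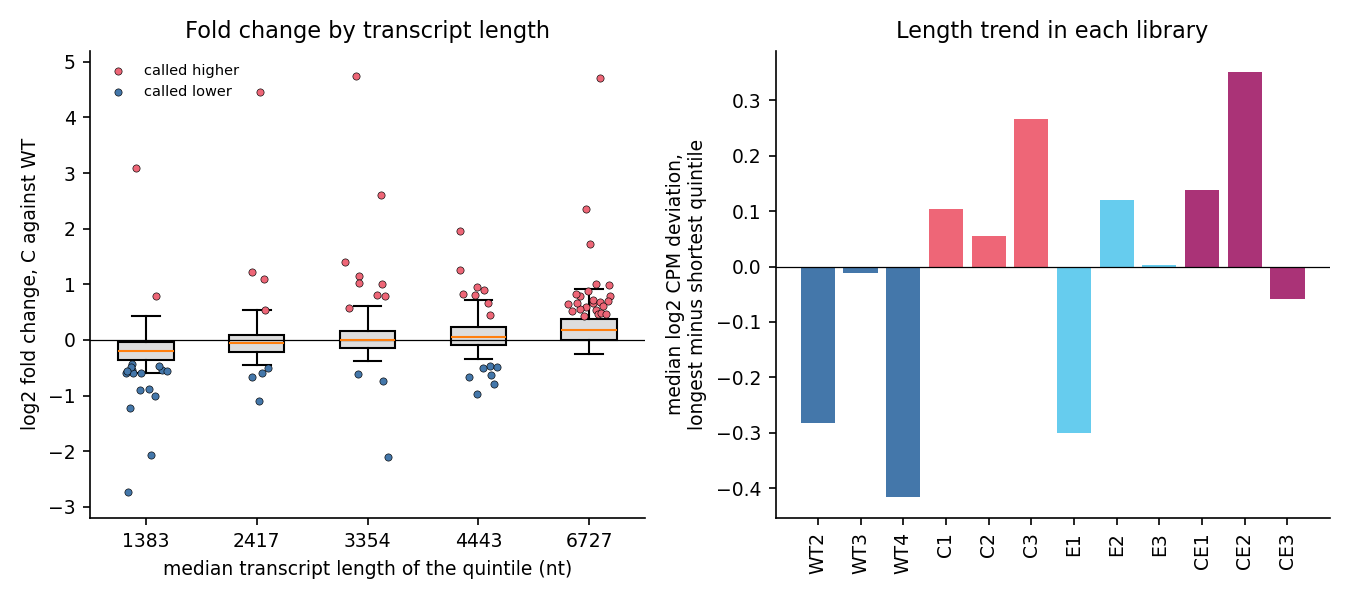
Left, log2 fold change of C against WT by quintile of transcript length (boxes: quartiles; whiskers: 5th to 95th percentile over genes) with called genes as points. Right, the median log2 CPM deviation of the longest minus the shortest quintile in each library. The medians rise from -0.20 to 0.17 with length, and the bars are below 0 in all 3 WT libraries and above 0 in all 3 C libraries.

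Within the inflammasome and pyroptosis pathway, Casp1 was the 1 member called by edgeR of 32 tested sensors, adaptors, gasdermins, cytokines and receptors, and the median of the list was -0.03 (4 higher and 4 lower at an unadjusted p under 0.05 in edgeR; 1 lower in DESeq2, 1 higher and 2 lower in limma voom). After Casp1 the smallest p belonged to Nlrp1b, an inflammasome sensor, at 1.29 ± 0.39 CPM in WT and 2.40 ± 0.50 in C (SD, n = 3 each; log2 0.88, adjusted p = 0.11, edgeR), named after its values were seen. Of 37 other tested genes within 10 Mb of Casp1, edgeR called 0, with a median of -0.06 (4 higher and 6 lower at an unadjusted p under 0.05). DESeq2 called 1 of them higher, and limma voom 1 higher and 4 lower. Called genes were spread over the autosomes. Of 242 windows of 10 Mb with at least 10 tested genes, 17 had a called share of at least 5 times that of all genes, and 5 of those held more than 1 called gene. The latter held Rag1 and the complement regulator Cd59a (chromosome 2), Klf4 and thioredoxin, Txn1 (chromosome 4), the RNA-binding protein gene Zfp36l1 with Cox16 and Fcf1 (chromosome 12), Meg3 and Syne3 (chromosome 12), and Dpysl2 with the neurofilament gene Nefl (chromosome 14). Klf4 was higher and Txn1 lower, and Zfp36l1 was higher while Cox16 and Fcf1 were lower, so the calls of these windows did not share a direction. Rag1 and Cd59a were both higher, as were Meg3 and Syne3, and Dpysl2 and Nefl were both lower.

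In the lists of stem cell and cell cycle genes edgeR called 0. Of 36 HSC identity genes 7 were higher and 0 lower at an unadjusted p under 0.05, and DESeq2 and limma voom each called 2 higher. Over all tested autosomal genes 23.3% had such a p in edgeR, so these 7 are no excess in number. The smallest p belonged to Hlf, a transcription factor of HSCs, at 66.9, 90.4 and 87.5 CPM in WT and 101, 99.6 and 112 CPM in C (log2 0.36, adjusted p = 0.0961, edgeR). Among 24 quiescence regulators and D cyclins, Cdk6, which promotes exit from quiescence, was at 75.3 ± 8.4 CPM in WT and 125 ± 17 in C (SD, n = 3 each; log2 0.73, adjusted p = 0.051, edgeR). Foxo3, which maintains quiescence, was at 58.7 ± 17.1 and 90.2 ± 1.8 CPM (SD, n = 3 each; log2 0.62, adjusted p = 0.0577, edgeR). Of the 24 genes 7 were higher and 1 lower at an unadjusted p under 0.05, DESeq2 called 3 higher and 1 lower, and limma voom 4 higher and 1 lower. The median was 0.07 for HSC identity (0.04 without WT2) and 0.14 for quiescence (0.25 with 7 called higher without WT4). For 36 S phase genes it was -0.07 (-0.03 without C1, -0.11 without C2), with 2 higher and 5 lower at an unadjusted p under 0.05, 0 called in DESeq2, and 1 higher and 2 lower in limma voom. For 32 G2/M genes it was -0.23 with 29 negative, and 10 were lower at an unadjusted p under 0.05. DESeq2 called 4 of these G2/M genes lower and limma voom 9. The G2/M median moved with single libraries: it was -0.04 with 23 negative without WT2, and -0.36 with 12 called lower without WT4. In CE against E the G2/M median was -0.34, with 6 of the 32 genes called lower by edgeR. Birc5, a mitotic survivin, had the smallest p of the G2/M list (log2 -0.55, adjusted p = 0.0549, edgeR). Endogenous Myc was at 447, 437 and 394 CPM in WT and 337, 324 and 319 CPM in C, groups that do not overlap (log2 -0.38, SE 0.10, adjusted p = 0.0579, edgeR).

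All 75 cytosolic ribosomal protein genes had a negative log2 fold change (median -0.39). Of these, edgeR called 0, with 62 lower at an unadjusted p under 0.05, while DESeq2 called 32 lower and limma voom 10. Without WT3 edgeR called 35 of them lower, and without WT4 it called 10. Of 69 nuclear oxidative phosphorylation genes 67 were negative (median -0.41) and 51 were lower at an unadjusted p under 0.05. DESeq2 called 35 of them lower and limma voom 26, and edgeR called 1, or 43 without WT3 and 27 without WT4. The 1 gene was Ndufs4, a complex I subunit, at 85.9, 69.6 and 66.1 CPM in WT and 49.7, 52.2 and 50.6 CPM in C (log2 -0.54, adjusted p = 0.0461, edgeR). These transcripts are short, with list medians of 1106 and 1232 nt, and with the length and GC trends removed the list medians were -0.19 and -0.17 and Ndufs4 did not pass (log2 -0.30, adjusted p = 0.0626, edgeR). The part of length in these list medians was not tested further. Of 45 ribosome biogenesis and MYC target genes edgeR called 0 (2 higher and 11 lower at an unadjusted p under 0.05), DESeq2 called 2 higher and 1 lower, and limma voom 2 higher and 3 lower. Their median was -0.13, or -0.03 without WT2. Of 24 glycolytic genes edgeR and DESeq2 called 0 and limma voom 2 higher, with 1 higher at an unadjusted p under 0.05 and a median of -0.01, or 0.11 without WT4.

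**Figure D3:**
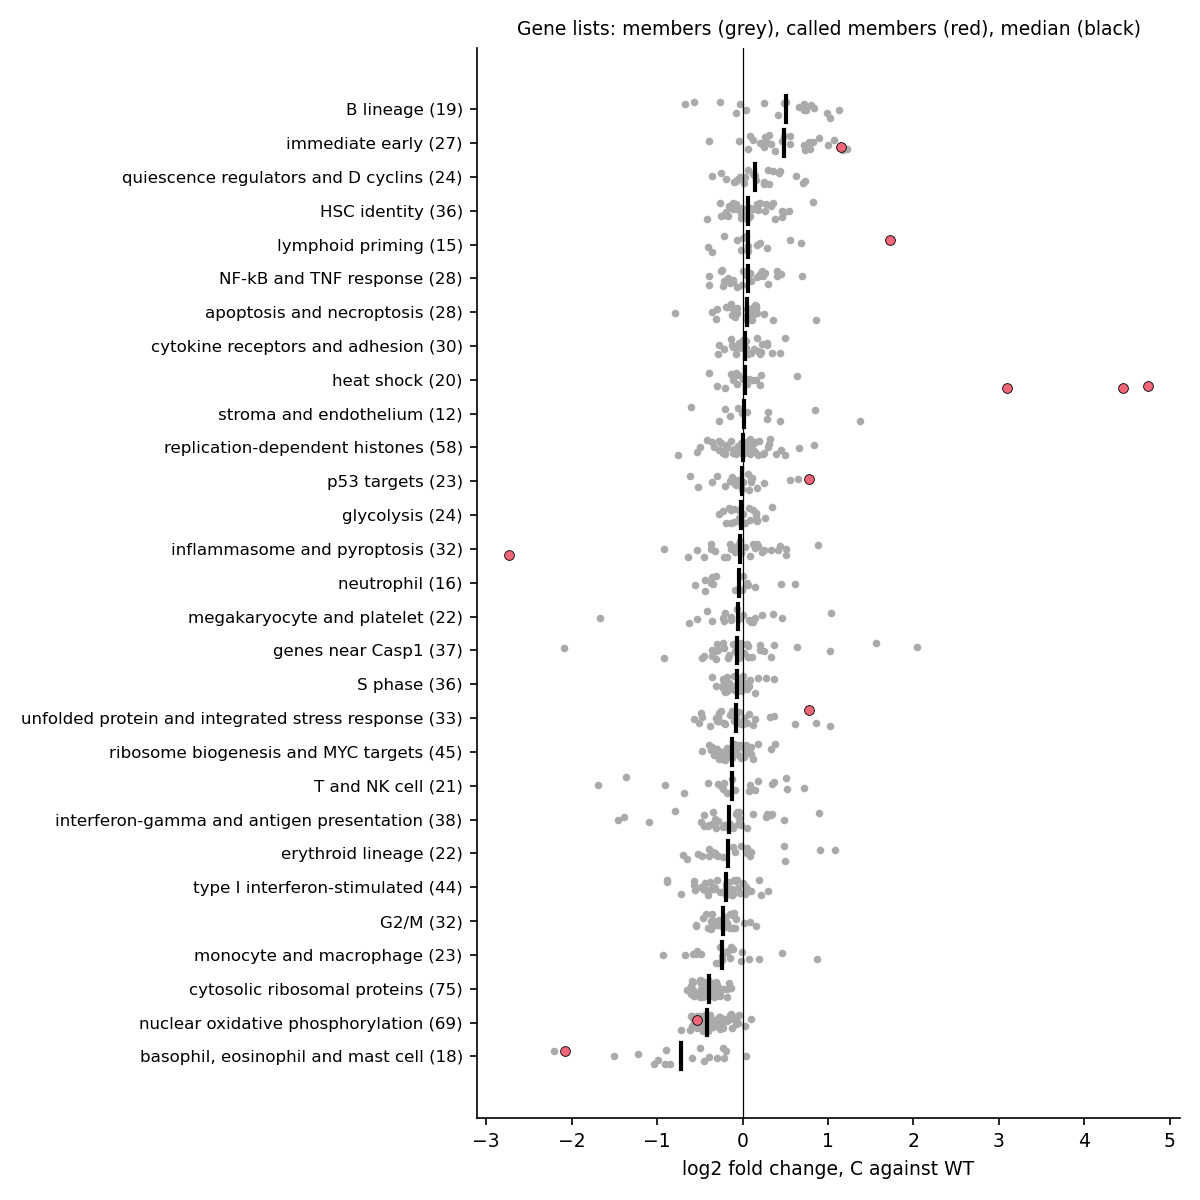
Log2 fold change of C against WT (horizontal axis) for each tested member of 29 gene lists, with the number tested in parentheses, members past the threshold in red and the list median in black. The highest points are the 3 heat shock genes, from 3.10 to 4.74, and the lowest is Casp1 at -2.73.

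In the 3 lists of inflammatory response genes edgeR called 0. Of 44 type I interferon-stimulated genes (median -0.20), 15 were lower at an unadjusted p under 0.05, and DESeq2 called 6 lower and limma voom 9. Of 38 interferon-gamma and antigen presentation genes (median -0.16), 4 were higher and 12 lower at an unadjusted p under 0.05, DESeq2 called 2 higher and 3 lower, and limma voom 8 lower. Of 28 NF-kB and TNF response genes, 3 were higher at an unadjusted p under 0.05, DESeq2 called 2 higher and limma voom 3. Their median was 0.06, or -0.06 without WT2 and 0.26 without WT4. Isg15, a ubiquitin-like interferon-induced protein, was at 27.9, 18.02 and 18.2 CPM in WT and 11.3, 14.6 and 8.77 CPM in C. Its groups did not overlap, and it missed the threshold (log2 -0.89, adjusted p = 0.0567, edgeR). The antigen-processing subunit Psmb9 was at 272 ± 23 CPM in WT and 200 ± 13 in C (SD, n = 3 each; log2 -0.45, adjusted p = 0.0617, edgeR). In CE against E the medians of these interferon lists were 0.00 and 0.01.

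Immediate early genes, which are transcribed within minutes of a stimulus, depended on WT4. Of 27 tested, 25 had a positive log2 fold change (median 0.48) and edgeR called 1, Klf4. At an unadjusted p under 0.05, 13 were higher and 1 lower, and DESeq2 called 6 higher and limma voom 19. The summed level of the list was 9260 CPM in WT2, 10490 CPM in WT3 and 22850 CPM in WT4, against 24150, 22680 and 23440 CPM in C. WT4 thus lay with the C libraries. Without WT4 the median was 1.04, and 23 members passed as higher and 1 as lower, where 8.32% of all tested genes were higher and 6.94% lower. The AP-1 subunit gene Fos, named after its values were seen, was at 1115, 1304 and 2844 CPM in WT and 3633, 3409 and 3468 CPM in C (log2 0.998, adjusted p = 0.0612 with WT4; 1.55, adjusted p = 0.000108 without it, edgeR). WT4 stood apart on the second principal component of the 6 libraries as well (24.7% of the variance), with a score of -39.8 against -2.4 to 12.2. On the first component (40.9%) WT2 was farthest out, at -43.1 against -14.4 to 25.2. In stress and death programs, Sesn2, a stress-induced inhibitor of mTORC1 signalling, rose from 6.49 ± 1.199 to 11.2 ± 1.0 CPM (SD, n = 3 each; log2 0.78, adjusted p = 0.0461, edgeR). It was the 1 member called by edgeR of both the 33 unfolded protein and integrated stress response genes (DESeq2 3 higher and 1 lower, limma voom 4 higher and 1 lower) and the 23 p53 targets (DESeq2 1 higher and 2 lower, limma voom 4 higher and 3 lower). At an unadjusted p under 0.05 in edgeR, 5 were higher and 6 lower in the former list, and 1 higher and 3 lower in the latter. Of 28 apoptosis and necroptosis genes edgeR called 0, with 1 higher and 3 lower at an unadjusted p under 0.05, DESeq2 1 higher and 1 lower, and limma voom 2 higher and 1 lower.

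Basophil, eosinophil and mast cell genes had a median of -0.72, with 17 of 18 negative and Prg3 called by edgeR (3 lower in DESeq2, 4 in limma voom). At an unadjusted p under 0.05 in edgeR 5 of the 18 were lower, where 23.3% of all tested autosomal genes had such a p. Their summed level was 159.4 to 204.5 CPM in C against 252.6 to 361.4 CPM in WT. Monocyte and macrophage genes had a median of -0.24 (-0.10 without WT2 and -0.15 without C2) with 19 of 23 negative. Of these 23, edgeR called 0 (1 higher and 3 lower at an unadjusted p under 0.05), DESeq2 1 higher and 1 lower, and limma voom 2 lower. Ccr2, a chemokine receptor of monocytes, was at 63.1, 41.7 and 28.4 CPM in WT and 22.2, 23.0 and 25.1 CPM in C (log2 -0.93, adjusted p = 0.0508, edgeR). B-lineage genes had a median of 0.51 with 14 of 19 positive, and edgeR, DESeq2 and limma voom called 0 (5 higher at an unadjusted p under 0.05). The median was 0.27 without C2 and 0.28 without WT4, and it was 0.91 with 6 genes called higher without WT3, where 1.6% of all tested genes were higher. Their summed level overlapped between C (261.2 to 357.3 CPM) and WT (176.7 to 303.9 CPM), and their median was -0.35 in CE against E. Rag1 was the 1 gene called by edgeR of 15 lymphoid priming genes (2 higher in DESeq2, 2 higher and 2 lower in limma voom). Of these 15, 3 were higher and 1 lower at an unadjusted p under 0.05 in edgeR. In edgeR 0 of the tested erythroid (22), megakaryocyte and platelet (22), neutrophil (16), T and NK cell (21) and stroma and endothelium (12) markers passed. At an unadjusted p under 0.05, 1 erythroid, 1 megakaryocyte, 2 T and NK cell and 2 stroma markers were higher, and 4 megakaryocyte, 3 neutrophil and 1 T and NK cell markers were lower. DESeq2 called 1 higher and 1 lower megakaryocyte marker and 1 higher stroma marker, and limma voom called 1 higher and 1 lower megakaryocyte marker, 1 lower neutrophil marker, 1 lower T and NK cell marker and 2 higher stroma markers. No list of cell type markers had a member without any count in all 6 libraries, and the part of other cells in the results was not tested.

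**Figure D4:**
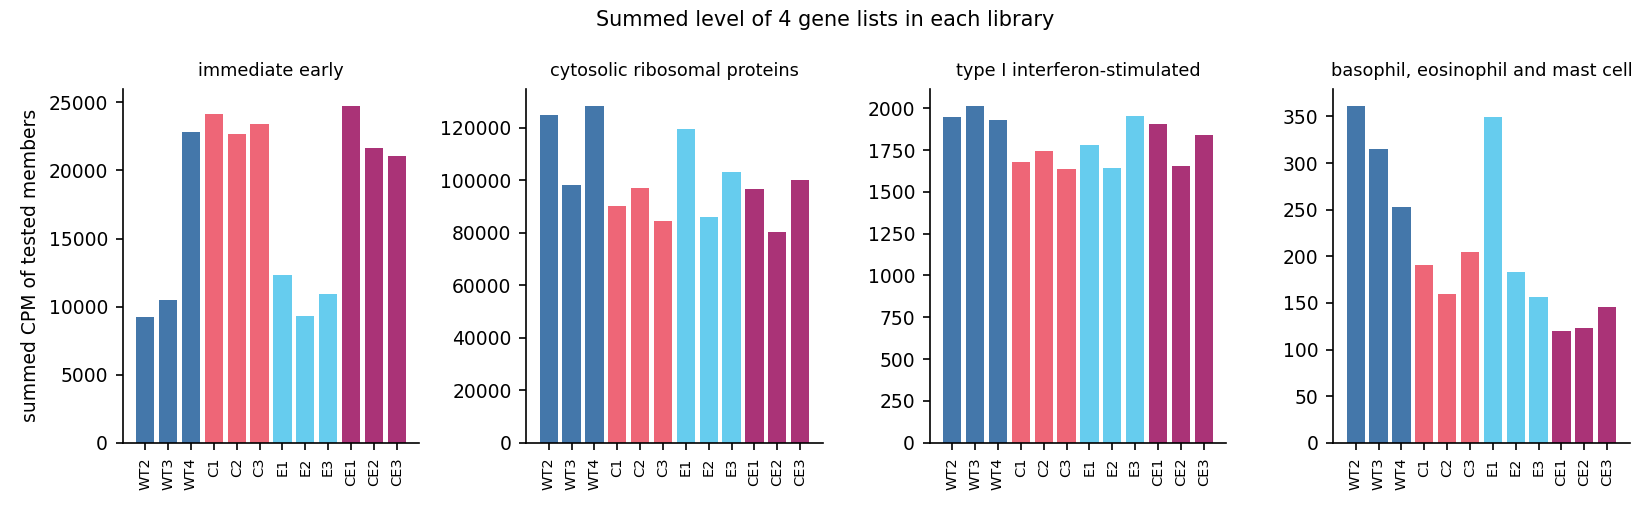
Summed CPM of the tested members of 4 gene lists in each library, coloured by group. The immediate early bars of WT2 (9260 CPM) and WT3 (10490 CPM) are below those of the C libraries and WT4 (22850 CPM) is among them, and the basophil, eosinophil and mast cell bars are at 159.4 to 204.5 CPM in C and 252.6 to 361.4 CPM in WT.

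The same deletion on the Emu-myc background, CE against E, shares no library with C against WT. It shares features that moved with the groups. The Y-linked sum was 121 CPM in CE1 and 117 CPM in CE2, against at most 0.221 CPM in E and 0.263 CPM in CE3. Median log2 fold changes of CE against E rose from -0.11 in the shortest to 0.10 in the longest quintile of transcript length. The part of sex and length in the agreement of the contrasts was not tested. In that contrast 213 autosomal genes passed (1.57%), 63 of them higher (0.463%) and 150 lower (1.1%). Of the 83 genes, 33 were among them, which is 39.8% of the C against WT calls and 15.5% of the CE against E calls, and all 33 (15 higher, 18 lower) had the same direction. All 83 had the same sign in CE against E, which held for 74.9% of all tested autosomal genes. Camk2b was 1.95 in C against WT and 1.91 in CE against E on the log2 scale, Plcd3 2.60 and 2.54, Wdfy1 1.27 and 1.28, Casp1 -2.73 and -2.78, and Aif1 -1.01 and -1.02. Prg3 (-2.08 and -0.83), Cd52 (-0.88 and -0.26) and Rag1 (1.72 and 0.99) were nearer to 0 in CE against E, where they did not pass. The difference between the contrasts was itself tested, and 0 genes passed (0%) in edgeR, with 287 genes at an unadjusted p under 0.05. DESeq2 and limma voom also gave 0. For Prg3 the difference was -1.25 and for Rag1 0.74, each with an adjusted p of 1. The immediate early list had a median of 1.01 in CE against E, with 10 of 27 genes called higher. Medians there were -0.34 for G2/M and -0.245 for nuclear oxidative phosphorylation (6 genes called lower in each). They were -0.75 for monocyte and macrophage genes (4 called lower) and -1.01 for basophil, eosinophil and mast cell genes (0 called). The B-lineage median had the other sign (-0.35), and the interferon medians were 0.00 and 0.01.

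**Figure D5:**
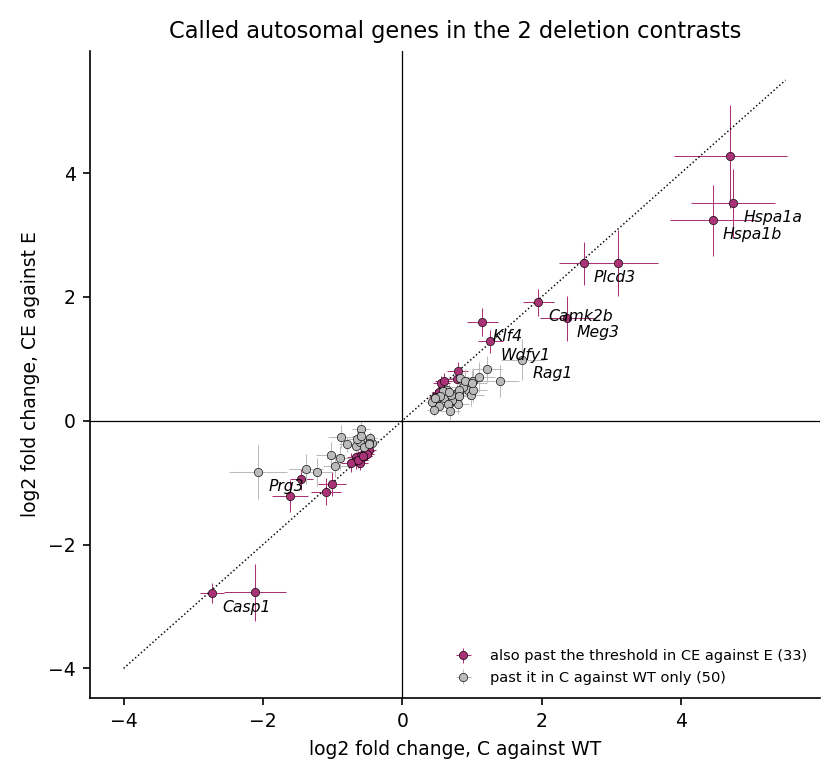
Log2 fold change in C against WT (horizontal) and CE against E (vertical) of the 83 called autosomal genes, with standard errors. Genes that also passed in CE against E (33) are purple and the other 50 are grey, the dotted line marks equal changes, and all 83 points lie in the lower left or upper right quadrant, as do 74.9% of all tested autosomal genes.

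CE3 and the E libraries all lacked Y-linked signal, so that their values can be set beside each other without a difference in it. CE3 lay beyond all 3 E libraries on the side of the C against WT change for 77 of the 83 genes (92.8%; 43 higher and 34 lower), against 46.1% of all tested autosomal genes. In a fit with a term for Y-linked signal, which rests on CE3 alone to separate it from the genotype, 1 gene passed, Casp1. None of the 83 changed sign, the median ratio of the log2 fold changes to those without the term was 0.825, and the median SE rose from 0.145 to 0.25. Most of the 83 genes stayed within 0.5 log2 units of their values, among them Casp1 (-2.88), Camk2b (1.87), Plcd3 (2.11), Gm15915 (-1.63) and Vasn (1.27). Hspa1a was 2.81, Hspa1b 2.35, Wdfy1 0.57, Klf4 0.56 and Rag1 0.93 with the term. The adjusted p of the genes named in these 2 sentences, other than Casp1, was between 0.493 and 0.568 in edgeR.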

How the data were processed

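RNA sequencing of total RNA from sorted HSCs gave 12 libraries in 4 groups of 3 mice. The authors deposited raw counts per gene (whole numbers, no normalization found). Alignment with STAR 2.5.3 to mm10 is stated per the submitters' processing notes; no counter, annotation, strandedness or filter is given in the sources used here. RefSeq (GRCm38.p6) gave symbols and positions and matched 25275 of 27179 gene numbers.

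Counts were fitted for all 12 libraries with edgeR 4.0.16 in R 4.3.3: TMM factors, filterByExpr by group, group means, two-sided quasi-likelihood F tests and Benjamini-Hochberg adjustment over all 14473 tested genes. Only autosomal rows are reported, which leaves out 12 called genes of chromosomes X (5) and Y (4) or with no position (3). The biological coefficient of variation was 0.139. Total counts per library limit the precision, and replicates carry the error. The labels call each library a sample of its genotype and the design gives 3 mice per genotype.

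Tested on simulated data of 14306 genes, the C against WT fit recovered 40.3% of 1.5-fold, 70.1% of 2-fold and 97% of 4-fold changes, with 6.12% false calls. The simulation held no length trend, no sex difference and no library that stood apart from its group.

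Named genes are Casp1, Casp4, Casp12 and Myc, the 12 largest called changes in each direction whose average log2 CPM was 1 or more and whose symbol was no clone name, up to 3 called members of each list (otherwise up to 2 with the smallest p) and called genes of dense 10 Mb windows. Members, lists and rules were chosen with earlier results of these data known. Alternatives used RLE factors, other filters, DESeq2 1.42.0, limma 3.58.1 voom with library quality weights, C and WT alone and a replicate block. Further alternatives used a Y-linked term, autosomal genes alone, length and GC trends removed (13225 tested genes with both), and each library left out.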

Additional observations from a re-analysis of the deposited data

How the results depend on the processing

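The number of calls depended strongly on the setting, while directions held: no called gene changed sign under the Y-linked term or without length and GC trends. Called genes with no known length were not adjusted for these trends. For C against WT, 47 higher and 36 lower genes became 96 higher with RLE factors and 94 higher with autosomal genes alone. They became 608 and 863 with no filter on low counts, 118 and 85 with a stricter filter, 545 and 584 in DESeq2, 829 and 836 in limma voom, 7 and 7 with C and WT alone, 17 and 12 without length and GC trends, and 0 and 1 with the Y-linked term. Leaving out 1 library gave 5 to 1164 higher and 2 to 970 lower genes, and without C1 and C3 together 3 and 1 passed, with the lone C library assumed to vary like the other groups. For CE against E, 63 higher and 150 lower became 480 and 629 with no filter, 458 and 659 in DESeq2, 587 and 738 in limma voom, 10 and 9 without length and GC trends (chosen after seeing the data) and 1 and 1 with the Y-linked term. Leaving out 1 library gave 1 to 12 higher and 1 to 18 lower genes. The difference of the contrasts had 35 calls with no filter, and 0 under each other alternative run. Casp4 passed with no filter (-0.57) and in limma voom (-0.62). With the Y-linked term, the log2 fold change of Rel was -0.038 and that of Prtn3 0.015, against 0.70 and -0.55 without it. Of 1493 values of named genes, 302 fell below the threshold and 151 rose above it. C and WT share only the numbers 2 and 3, whose deviations correlated at 0.032 and 0.151. Libraries with different numbers in different groups reached -0.278 (WT4 and CE2) and 0.319 (WT4 and CE3). These values therefore cannot show whether the samples share more than a number. With the replicate block 1014 higher and 913 lower genes passed in C against WT, and 659 and 739 in CE against E. WT4 is the only library with its number, so the block fits it by itself and C against WT no longer draws on it. For C against WT the block is therefore close to leaving WT4 out, which gave 1164 higher and 970 lower genes. The cause of the other changes was not tested. At 3 mice a group, changes of 2-fold or less are detected in part only (70.1% of 2-fold changes in the simulation).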
